A study of Mus musculus with 17 samples.

Results

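Disease-associated microglia (DAM) genes were examined in bulk RNA-seq counts from mouse prefrontal cortex. The members were 10 genes taken by symbol from the 56953 genes of the count table: Trem2, Tyrobp, Cst7, Itgax, Clec7a, Lpl, Axl, Cd9, Ctsd and Cd68. All 10 were found, each on 1 entry, and 9 of them passed the filter on low counts. Cst7 did not pass it. The table held 17 libraries, 5 from WT, 6 from PS19 and 6 from CgA-KO/PS19 mice, all on the B6C3F1/J background and aged 8 months by the labels, while a figure legend of the study gives 9 months for its RNA-seq mice. PS19 mice, labelled hTau, are heterozygous for a mutant human Tau transgene driven by the mouse Prnp promoter, which is active mainly in neurons. CgA-KO/PS19 mice, labelled CgA-KO/hTau, carry the same transgene and lack Chga, the gene of chromogranin A (CgA), in the whole body from conception. A CgA-KO group without the transgene was not analysed here, so the loss of Chga was compared only among mice that carry the transgene.

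Microglia are the resident macrophages of the brain. Next to amyloid, dying neurons or demyelinated fibres they are known to lower their homeostatic genes and to raise a shared set of genes for lipid handling, lysosomes and phagocytosis, the DAM programme. Trem2 is a surface receptor for lipids and lipoproteins that signals through the adaptor Tyrobp (also called DAP12) to the kinase Syk, and the late step of the programme, with Itgax, Lpl, Cst7, Clec7a and Axl, is known to depend on it. In bulk tissue a lower level of such a gene can come from fewer cells of a type or from less RNA per cell, and these cannot be told apart. Several members are not specific to microglia: Cd9, Ctsd, Axl and Lpl are also expressed by other brain cells.

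The total count was 8838334 to 227651681 per library, with WT replicate 4 the shallowest. About 2.67 deposited counts stood for 1 sequenced fragment. Levels are given as CPM, the count scaled to a common library size after edgeR's TMM normalization. No CgA-KO/PS19 library held a count of Chga, whose mean was 163 CPM in WT and 168 CPM in PS19. Prnp, whose promoter drives the transgene, averaged 833 CPM in WT and 2119 and 1561 CPM in the PS19 and CgA-KO/PS19 mice. In CgA-KO/PS19 it was at 1236 to 1348 CPM in replicates 1 to 3 and at 1676 to 2079 CPM in replicates 4 to 6. The lowest PS19 library was at 1974 CPM. Some libraries stood apart. PS19 replicates 4 to 6 were nearly identical to each other (1.97 to 2.45 times the counting noise), as were CgA-KO/PS19 replicates 1 and 3 (2.90 times), whereas the next closest pair of any genotype was at 4.33 times, so results that rest on them are also given with these libraries averaged. Markers of striatal neurons, a cell type outside the labelled region, summed to 1112 to 3271 CPM in WT and only 163 to 219 CPM in PS19. In CgA-KO/PS19 they reached 430 to 1910 CPM in replicates 1 to 3 but 197 to 223 CPM in the others. In every genotype the Y-linked gene Ddx3y exceeded 1 CPM in the first 3 replicates alone, while the labels give no sex per library. The study describes its libraries as biological replicates from mice of both sexes, while the labels tie no library to an animal. It states 3 males and 2 to 3 females per genotype, as many as the libraries with and without Ddx3y.

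The promoters of 3 members are shown because Trem2 and Axl moved together between libraries and Ctsd was the most abundant member. The RefSeq table (GRCm38.p6) held promoters of 8 of the 10 members, and Tyrobp and Lpl are named only. Each sequence is the 250 bases before the RefSeq start of transcription, 5′ to 3′ on the strand of the gene. Capitals mark GAGGAA, the core recognised by PU.1 (the microglial transcription factor encoded by Spi1), or its reverse complement, in Trem2 and Axl, and CACGTG, the E-box recognised by lysosomal gene regulators of the TFEB family, in Ctsd. The Trem2 window is chr17:48346151-48346400 on the plus strand, the Axl window chr7:25788734-25788983 on the minus strand and the Ctsd window chr7:142387828-142388077 on the minus strand. The GENCODE M21 model of Ctsd begins at 142388038, so by that model part of the Ctsd window lies within the gene.
Trem2: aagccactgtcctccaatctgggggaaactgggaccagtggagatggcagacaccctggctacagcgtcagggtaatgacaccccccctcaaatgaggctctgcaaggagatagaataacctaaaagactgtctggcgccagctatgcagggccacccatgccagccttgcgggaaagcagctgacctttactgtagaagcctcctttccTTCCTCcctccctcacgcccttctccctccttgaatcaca
Axl: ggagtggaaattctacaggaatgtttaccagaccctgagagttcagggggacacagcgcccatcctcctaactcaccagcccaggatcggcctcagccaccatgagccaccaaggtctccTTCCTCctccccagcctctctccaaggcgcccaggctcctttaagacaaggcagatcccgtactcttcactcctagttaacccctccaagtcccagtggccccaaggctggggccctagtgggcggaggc
Ctsd: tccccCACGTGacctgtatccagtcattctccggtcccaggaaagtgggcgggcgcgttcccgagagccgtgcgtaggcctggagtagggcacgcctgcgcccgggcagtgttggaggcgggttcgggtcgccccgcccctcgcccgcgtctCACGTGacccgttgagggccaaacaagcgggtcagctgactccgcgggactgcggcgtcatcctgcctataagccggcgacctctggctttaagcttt

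Searched on both strands, GAGGAA was found before 4 of the 8 genes (Trem2, Axl, Cd68 and Clec7a), against 23.3% of all 32851 mouse promoters of this length. Members are counted as genes, and Clec7a has more than 1 promoter, while the percentages are of promoters. CACGTG was found before 1 of the 8 genes, with 2 matches in Ctsd, against 6.02% of all promoters. The 2 motifs share no letters that would make 1 a match of the other. Such matches describe letters in a window and are not sites of binding.

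The members differed widely in abundance in the cortex. Per kilobase of exon (GENCODE M21 gene models), Ctsd, a lysosomal aspartic protease, was the highest, with 103 ± 25.3 CPM per kb for WT. The PS19 mean was 120 ± 5.39 and that of CgA-KO/PS19 91.1 ± 18.9 CPM per kb (mean ± SD, n = 5, 6 and 6). Cd9, a tetraspanin of the cell surface, followed at 10.2 CPM per kb in WT. Cd68, a glycoprotein of lysosomes and endosomes in macrophages, was at 7.21, Tyrobp at 6.45, the receptor tyrosine kinase Axl at 4.94 and Lpl, lipoprotein lipase, at 3.96 CPM per kb in WT. Neighbours in this order from Cd9 to Lpl overlapped in WT, so that their order there is within the spread between libraries. In PS19 the order was Ctsd, Cd9, Tyrobp, Axl, Cd68, Lpl and Trem2, in which Axl and Cd68 overlapped as well and Lpl (1.55 CPM per kb) overlapped with Trem2 (1.27). Trem2 was lower in WT, at 0.980 CPM per kb, without overlap with Lpl there. Cst7 (a cystatin that inhibits cysteine proteases), Itgax (the integrin CD11c) and Clec7a (the beta-glucan receptor Dectin-1) were at most 0.0528 CPM per kb in WT, and libraries without a single count occurred for each of them.

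**Figure D1:**
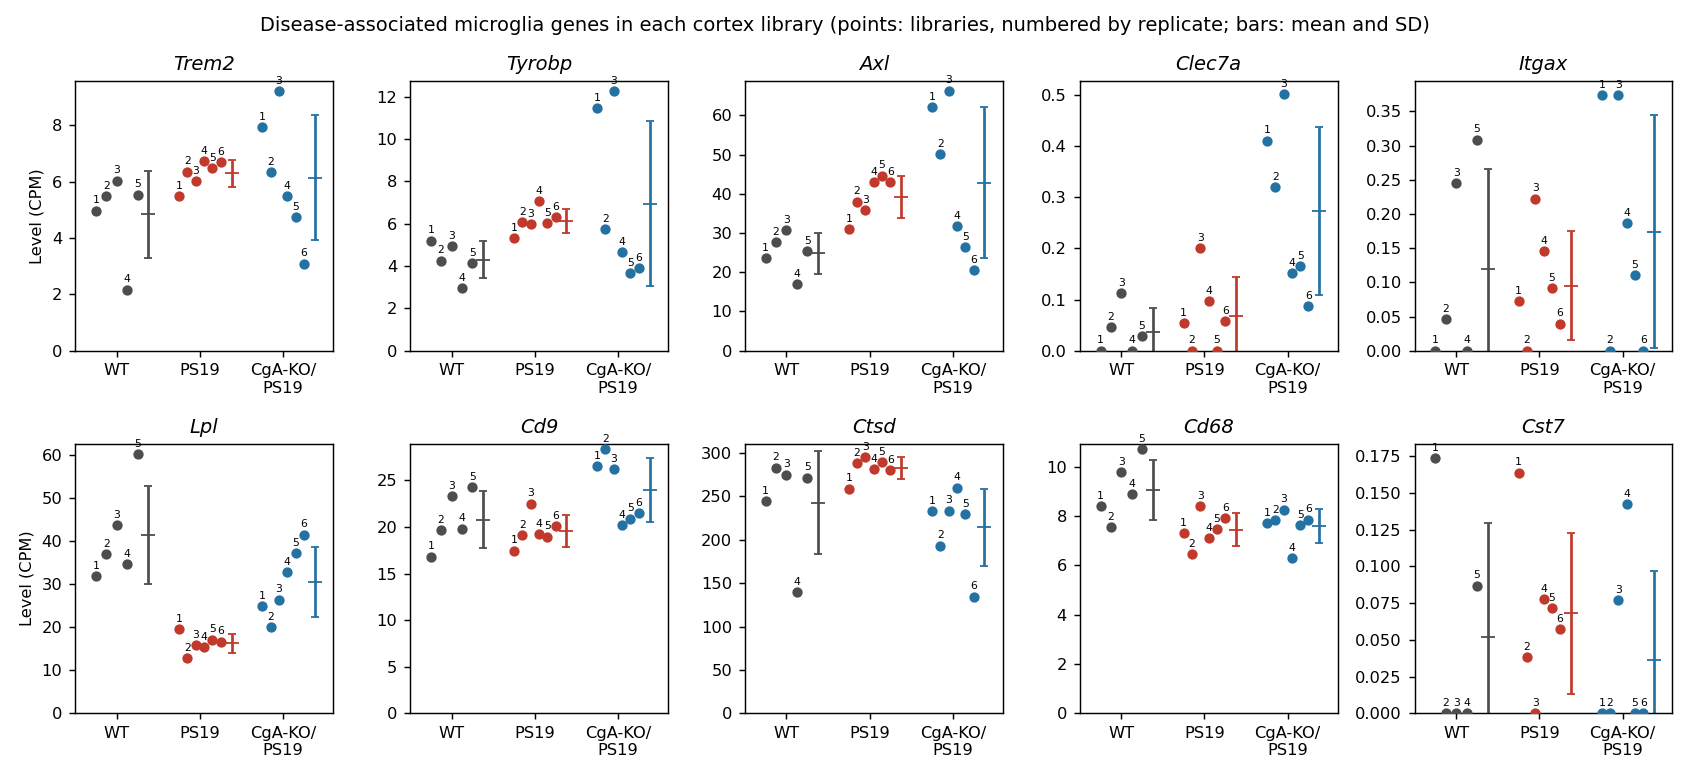
Level of each of the 10 genes in each library, in CPM on a linear axis from 0, grouped by genotype (points are libraries numbered by replicate, and the bar beside each group gives its mean and SD, n = 5, 6 and 6). Lpl in PS19 (12.9 to 19.7 CPM) lies below all libraries of the other genotypes, and CgA-KO/PS19 replicates 1 to 3 lie above replicates 4 to 6 for Trem2, Tyrobp, Axl, Clec7a and Cd9.

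Lpl was the only member that changed under the main test, which was the quasi-likelihood test of edgeR fitted to 17 libraries, with Benjamini-Hochberg adjustment over 23062 genes. An FDR under 0.05 was reached by 1 of 9 members (Lpl, lower) in PS19 against WT, where 5.9% of all genes reached it. It was reached by 1 of 9 (Lpl, higher) in CgA-KO/PS19 against PS19, beside 9.72% of all genes, and by 0 of 9 in CgA-KO/PS19 against WT, against 6.46% of all genes, while DESeq2 called 1 (Axl) and limma voom 1 (Lpl). These counts are near the background of each comparison or below it. At an unadjusted p under 0.05 there were 3, 4 and 5 of the 9 members in the 3 comparisons, against 20.9%, 27.8% and 21.7% of all genes. The libraries of the groups compared did not overlap for 3 members (Lpl, Axl and Tyrobp), 1 member (Lpl) and 0 members, against 9.52%, 6.63% and 3.6% of all genes. The Methods rule of the study (log2 fold change beyond 0.5 and p under 0.01) was met by Lpl in the first 2 comparisons and by Axl in the last, where 7.39%, 9.73% and 7.75% of all genes met it. The median log2 fold change of the 9 members was 0.22, 0.19 and 0.31, beside 0.0097, 0.026 and 0.0090 over all genes tested. The first 2 comparisons share the PS19 libraries.

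**Figure D2:**
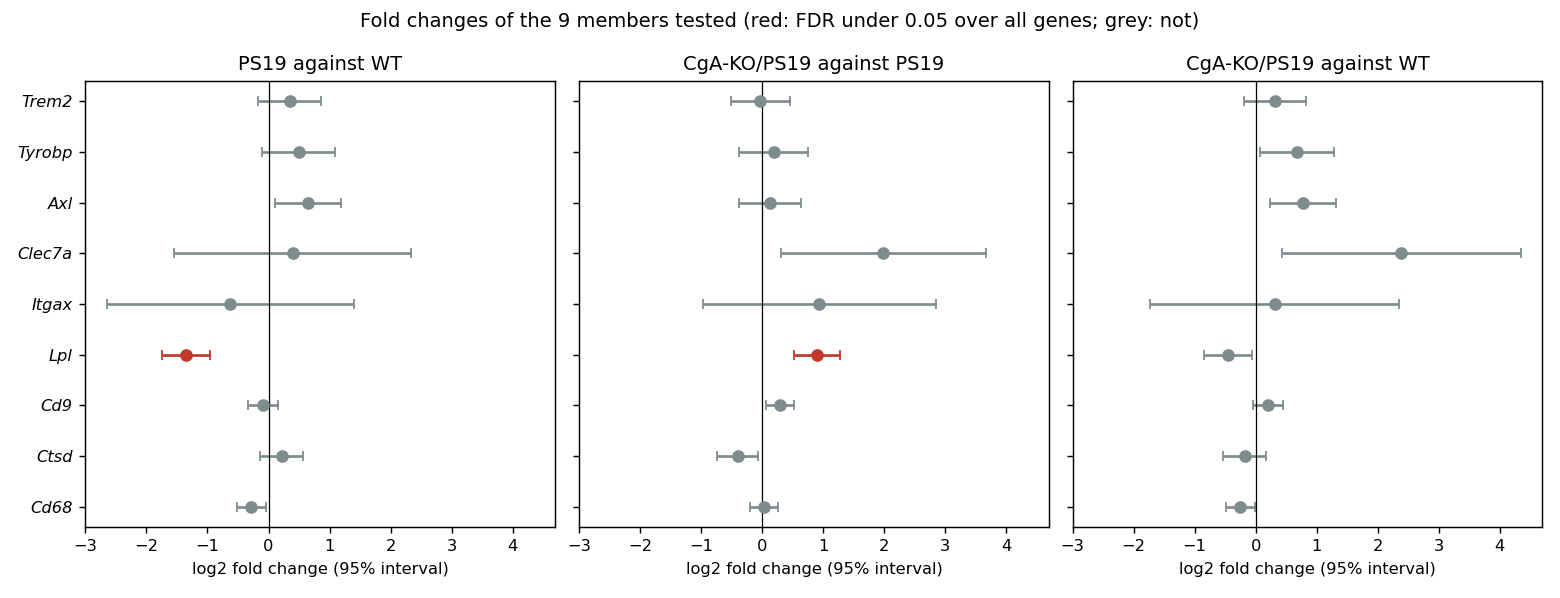
Log2 fold change of the 9 members tested (points, with 95% intervals from the edgeR fit) in the 3 comparisons, with each gene on a line of its own. Only Lpl is red (FDR under 0.05), at -1.35 in PS19 against WT and 0.90 in CgA-KO/PS19 against PS19, and the intervals of Clec7a and Itgax are the widest.

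Lpl releases fatty acids from lipoproteins, and in the brain neurons and microglia are known to express it. It lies at chr8:68880491-68907448 (GRCm38). Its level in the WT libraries was 32.0, 37.0, 43.8, 34.7 and 60.3 CPM, replicate 5 being the highest. In the PS19 libraries it was 19.7, 12.9, 15.9, 15.4, 17.1 and 16.7 CPM. In the CgA-KO/PS19 libraries it was 24.9, 20.0, 26.4, 32.9, 37.2 and 41.6 CPM. All 6 PS19 libraries were below those of both other genotypes, which overlapped with each other. Lpl was 2.56-fold lower in PS19 than in WT (log2 fold change -1.35 ± 0.19 SE, FDR = 0.000496 by edgeR), and CgA-KO/PS19 had 1.87-fold more of it than PS19 (0.90 ± 0.18, FDR = 0.00715). Between CgA-KO/PS19 and WT it differed by -0.45 ± 0.19 (FDR = 0.166).

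The lower Lpl level of PS19 against WT held in each alternative fit, with log2 fold changes of -1.58 to -1.18, the smallest without WT replicate 5. That library also had choroid plexus markers at 1094 CPM in sum, against at most 18.8 CPM in the other WT libraries. The difference between CgA-KO/PS19 and PS19 was 0.96 with FDR = 0.0617 once the near-identical libraries were averaged, and it was then no longer past the threshold. Within CgA-KO/PS19, Lpl was higher in replicates 4 to 6, where striatal markers were low, than in replicates 1 to 3. With the striatal marker score as a covariate, the log2 fold changes of Lpl were -1.58 (FDR = 0.0040) and 0.99 (FDR = 0.0117), of the same sign and past the same threshold. WT and PS19 do not overlap in this score, so the covariate and the genotype cannot be told apart for the first value.

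Axl, a receptor of the TAM family that binds apoptotic cells through the bridging ligand Gas6, lies at chr7:25757273-25788705. It was at 23.6, 27.7, 30.8, 16.9 and 25.4 CPM in WT and at 30.9, 38.01, 35.8, 42.9, 44.6 and 43.0 CPM in PS19. All PS19 libraries were above all WT libraries, yet the difference of 0.65 ± 0.26 (SE) did not pass the adjustment (FDR = 0.149). In CgA-KO/PS19 it was at 62.0, 50.1 and 66.3 CPM in replicates 1 to 3 and at 31.7, 26.3 and 20.6 CPM in replicates 4 to 6. The first set lay above every PS19 library and the second reached from within the PS19 range down into the WT range. Against PS19 the mean difference was 0.13 ± 0.24 (FDR = 0.769), and against WT it was 0.78 ± 0.26 (FDR = 0.0792).

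Tyrobp, at chr7:30413760-30417585, showed a like pattern. It was at 5.21, 4.26, 4.95, 2.97 and 4.12 CPM in WT and at 5.32, 6.08, 5.97, 7.07, 6.03 and 6.30 CPM in PS19, with no overlap between these groups. The log2 difference was 0.49 ± 0.29 (FDR = 0.343). In CgA-KO/PS19 replicates 1 to 6 it was at 11.5, 5.74, 12.3, 4.68, 3.65 and 3.90 CPM. Replicates 1 and 3, the near-identical pair, were the highest of all libraries, and replicates 4 to 6 were below every PS19 library. The mean difference was 0.19 ± 0.27 against PS19 (FDR = 0.688) and 0.68 ± 0.29 against WT (FDR = 0.172).

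Trem2, at chr17:48346401-48354147, was at 4.98, 5.50, 6.04, 2.17 and 5.54 CPM in WT, where replicate 4 stood apart from the other 4 libraries. In PS19 it was at 5.48, 6.36, 6.02, 6.73, 6.49 and 6.71 CPM. In CgA-KO/PS19 it was at 7.95, 6.34, 9.22, 5.49, 4.74 and 3.09 CPM. The genotypes overlapped, with a log2 difference of 0.35 ± 0.24 for PS19 against WT (FDR = 0.447) and 0.31 ± 0.24 for CgA-KO/PS19 against WT (FDR = 0.50). For CgA-KO/PS19 against PS19 the difference was -0.03 ± 0.23 (95% interval -0.52 to 0.45), an interval that holds changes of either sign.

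Axl, Tyrobp and Trem2 thus split CgA-KO/PS19 into replicates 1 to 3, with Ddx3y, and replicates 4 to 6, without it. After this was seen, the model was refitted with a mean per genotype and Ddx3y class, to give the size of the split and not a test of it, since the same libraries and genes had shown it. The log2 difference between CgA-KO/PS19 and PS19 was 0.77 with Ddx3y and -0.73 without it for Axl, and the 2 values differed by 1.496 ± 0.25 (SE). For Tyrobp they were 0.77 and -0.66 and differed by 1.43 ± 0.33. For Trem2 they were 0.40 and -0.57 and differed by 0.97 ± 0.37. Lpl went the other way, with 0.56 and 1.18. With the near-identical libraries averaged, the difference between the classes was 1.43 ± 0.35 for Axl and 1.27 ± 0.43 for Tyrobp. In the CgA-KO/PS19 libraries with Ddx3y, mitochondrial genes took 13.8% to 18.2% of the counts against 3.84% to 10.9% in those without it, and their summed astrocyte markers were 3907 to 6115 CPM against 1114 to 3259 CPM. The Ddx3y class, mitochondrial share, Prnp level and cell type markers cannot be told apart within this genotype, and their part in the result was not tested.

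Of the lysosomal members, Ctsd (chr7:142375911-142388038, overlapping Gm49369 on the same strand) ranged over 139 to 283 CPM for WT. The PS19 libraries were at 259 to 295 CPM and the CgA-KO/PS19 libraries at 135 to 260 CPM. WT replicate 4 and CgA-KO/PS19 replicate 6 were the lowest libraries. The log2 difference was 0.22 ± 0.17 for PS19 against WT (FDR = 0.498) and -0.40 ± 0.16 for CgA-KO/PS19 against PS19 (FDR = 0.115). Cd68 (chr11:69664213-69666153) ranged over 7.56 to 10.7 CPM for WT. The PS19 libraries were at 6.45 to 8.40 CPM and the CgA-KO/PS19 libraries at 6.29 to 8.26 CPM. Its mean was the lower in PS19, by a log2 difference of -0.28 ± 0.11 (FDR = 0.151), and between CgA-KO/PS19 and PS19 it was 0.03 ± 0.11 (95% interval -0.20 to 0.25, FDR = 0.896). The groups overlapped for both genes in each comparison.

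Cd9 (chr6:125460266-125494791, overlapping the antisense gene Gm28809 and the transcript Gm26728) was at 16.8 to 24.3 CPM in WT and 17.5 to 22.5 CPM in PS19. In CgA-KO/PS19 it was at 26.2 to 28.4 CPM in replicates 1 to 3 and at 20.3 to 21.5 CPM in replicates 4 to 6, so that only the first set lay above all other libraries. The log2 difference was -0.09 ± 0.12 for PS19 against WT (FDR = 0.718) and 0.29 ± 0.11 for CgA-KO/PS19 against PS19 (FDR = 0.101). Oligodendrocytes also express Cd9, and their summed markers were 1306 to 2058 CPM for WT, 1379 to 2013 CPM for PS19, and 2878 to 3276 CPM in the first 3 and 1743 to 1852 CPM in the last 3 CgA-KO/PS19 replicates. Their part in the result was not tested.

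Clec7a, Itgax and Cst7, genes of the late step of the programme, were close to the limit of detection. A count of 0 allows up to 3 fragments, or 8 deposited counts, which is 0.0352 to 0.231 CPM in the libraries other than WT replicate 4 and 0.912 CPM there. The limit covers counting error only. Clec7a (chr6:129461591-129472779, annotated as a polymorphic pseudogene) had 0, 3, 22, 0 and 3 counts in the WT libraries. The PS19 libraries held 3, 0, 37, 10, 0 and 13 counts of it and the CgA-KO/PS19 libraries 23, 16, 91, 17, 9 and 3. It had a count in 3 of 5 WT, 4 of 6 PS19 and 6 of 6 CgA-KO/PS19 libraries, where its mean was 0.272 CPM against 0.0683 CPM in PS19 and 0.0375 CPM in WT. The log2 difference was 1.99 ± 0.80 against PS19 (FDR = 0.116) and 2.39 ± 0.93 against WT (FDR = 0.139), from at most 34.1 fragments in a library.

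Itgax (chr7:128129547-128150657) reached at most 48 counts in a WT library, 41 in a PS19 library and 68 in a CgA-KO/PS19 library. It was listed at 0 in 2, 1 and 2 libraries of these genotypes. Its log2 differences were -0.63 ± 0.96 for PS19 against WT, 0.94 ± 0.91 for CgA-KO/PS19 against PS19 and 0.31 ± 0.97 for CgA-KO/PS19 against WT, with FDR of 0.532 to 0.900. Cst7 (chr2:150570415-150578944) had 6, 0, 0, 0 and 9 counts in the WT libraries. The PS19 libraries held 9, 6, 0, 8, 11 and 13 counts of it and the CgA-KO/PS19 libraries 0, 0, 14, 16, 0 and 0. It was not tested by edgeR, and no difference was detectable at this depth.

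The members did not vary as 1 unit between libraries of a genotype. On log2(CPM + 1) values centred on the genotype mean over 17 libraries, Pearson's r was 0.91 between Trem2 and Axl (Spearman's rho 0.90), 0.89 between Tyrobp and Axl (rho 0.77) and 0.81 between Trem2 and Tyrobp (rho 0.81). Without the 2 libraries farthest from the median of the first gene these were 0.93, 0.83 and 0.88, and over the 11 WT and PS19 libraries they were 0.89, 0.77 and 0.83. The 11 libraries include the shallow WT replicate 4, the lowest in WT for all these genes, and r was not recomputed without it there. In WT replicates 1, 2, 3 and 5, Trem2 was at 4.98, 5.50, 6.04 and 5.54 CPM. Tyrobp, at 5.21, 4.26, 4.95 and 4.12 CPM, did not rise with it. Trem2 and Ctsd had an r of 0.83, but 0.33 without the 2 farthest libraries, so that this relation rests on them. Lpl went the other way, with an r of -0.50 with Axl (rho -0.45), which was 0.17 over the WT and PS19 libraries. Cd68 had an r of at most 0.18 with Trem2, Tyrobp and Axl. Because near-identical libraries are not independent and CgA-KO/PS19 falls into 2 sets, these are descriptions and no p is given.

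**Figure D3:**
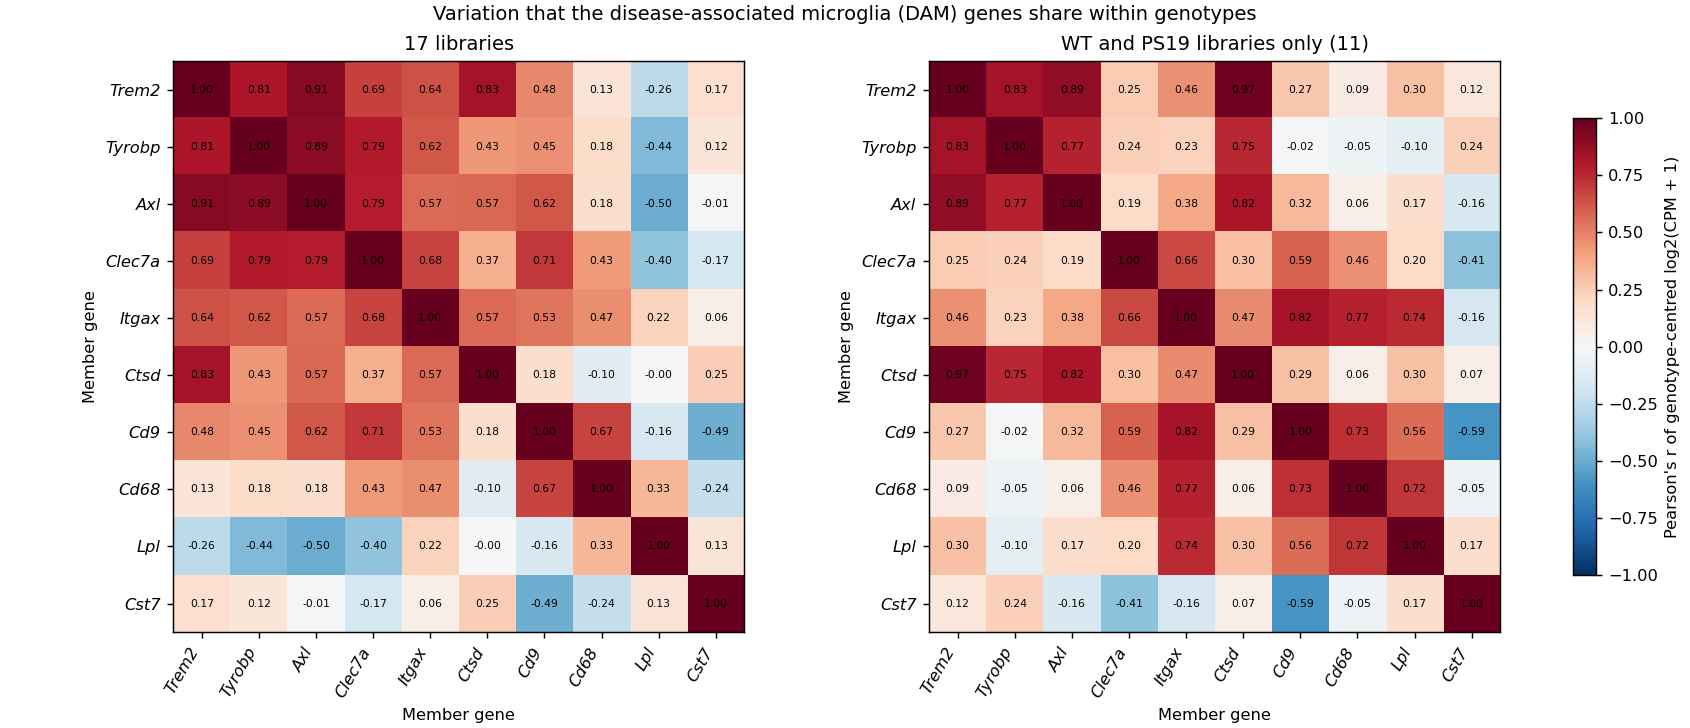
Pearson's r between the 10 genes, on log2(CPM + 1) centred on the genotype mean, over all 17 libraries (left) and over the 11 WT and PS19 libraries (right), on a colour scale from -1 to 1. Trem2, Tyrobp and Axl form a block at 0.77 to 0.91 in both panels, while Lpl changes sign with Trem2 (-0.26 and 0.30) and Axl (-0.50 and 0.17). Both panels include WT replicate 4, the lowest WT library for Trem2, Tyrobp and Axl.

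The same centred levels also followed lists of other cells. Axl had an r of 0.95 with the astrocyte score (mean log2(CPM + 1) of 8 markers), 0.94 with the score of pan-microglia genes and 0.85 with the striatal score, and Tyrobp 0.84, 0.87 and 0.90. Trem2 had an r of 0.82 with the astrocyte score and 0.83 with the pan-microglia score. With the score of homeostatic microglia genes, r was 0.75 for Trem2, 0.72 for Tyrobp and 0.85 for Axl. Cortical neuron markers went the other way, with an r of -0.69, -0.72 and -0.74. With the score of genes that signal downstream of Trem2, Tyrobp and Clec7a, r was 0.95 for Trem2, 0.87 for Tyrobp and 0.95 for Axl. With the score of ligands and partners of the members it was 0.98, 0.76 and 0.88. Of 15474 genes with a mean of at least 1 CPM, those most like the mean of the 10 members were Bcr (r = 0.96), Tpbgl (0.96), Gamt (0.95), Wnk4 (0.94) and Ror1 (0.94). Those most like Trem2 were Slc27a1, Eef2 and Ctdsp1 (0.98 to 0.99), and those most like Tyrobp were Sardh, 2900052L18Rik and Gng10 (0.94 to 0.95). None of these 11 genes was on a microglial list used here. All points share the library and its depth.

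Of 24 further genes of the DAM programme, 22 were tested. In PS19 against WT, 2 rose and 1 fell. In this comparison 5.9% of all genes passed, and the libraries did not overlap for 9.52% of all genes. Fabp5, a fatty acid carrier, rose by 0.40 on the log2 scale (FDR = 0.0236, all PS19 above all WT libraries), from 31.5 to 39.7 CPM in WT to 42.8 to 47.9 CPM in PS19. Ctsz, a lysosomal carboxypeptidase, rose by 0.41 (FDR = 0.0486). Timp2, an inhibitor of metalloproteinases, fell by 0.69 (FDR = 0.0167), from 342 to 650 CPM to 263 to 328 CPM. With near-identical libraries averaged, 0 of the 22 passed in this comparison, with 5 at an unadjusted p under 0.05. That fit called 427 of all genes here, where the main fit called 1361.

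Fth1, the ferritin heavy chain that stores iron, rose by 0.60 (FDR = 0.0118) in CgA-KO/PS19 against PS19, and the lysosomal protease Ctsb fell by 0.49 (FDR = 0.0215). In this comparison 9.72% of all genes passed. With near-identical libraries averaged, 0 of the 22 passed, with 3 at an unadjusted p under 0.05. That fit called 163 of all genes, where the main fit called 2242. Against WT, Lyz2, the lysozyme of macrophages, rose by 1.28 (FDR = 0.00799), from a mean of 1.85 CPM to 4.58 CPM. Fth1 rose by 0.80 and Fabp5 by 0.63, and Timp2 fell by 0.67. Lyz2, Fth1 and Fabp5 did not overlap between the 2 genotypes and also passed with near-identical libraries averaged. In CgA-KO/PS19 against WT 6.46% of all genes passed in the main fit, and 3.6% did not overlap. Fth1 has processed pseudogenes with which it may share reads. In PS19, Fth1 averaged 758 CPM and Ctsb 679 CPM, while all pan-microglia genes together averaged 208 CPM. The part of other cells in the changes of these genes was not tested. The median log2 fold change of the 22 genes was 0.20, 0.08 and 0.09 in the 3 comparisons.

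None of the 15 tested genes that signal downstream of Trem2, Tyrobp and Clec7a, from the adaptor Hcst to the kinase Syk, passed in any comparison by edgeR. Of all genes 5.9% (PS19 against WT), 9.72% (CgA-KO/PS19 against PS19) and 6.46% (CgA-KO/PS19 against WT) passed. At an unadjusted p under 0.05 there were 1, 0 and 2 of the 15, against 20.9%, 27.8% and 21.7% of all genes. DESeq2 called 0 in each comparison, and limma voom called 1, 1 and 0 (Pik3cd and Syk, both higher). Syk was the lowest in p for CgA-KO/PS19 against WT, with a log2 difference of 0.42 ± 0.16 (FDR = 0.115). In PS19 against WT the one with the lowest p was Pik3cd (0.32 ± 0.15, FDR = 0.228) and in CgA-KO/PS19 against PS19 it was Ptpn6 (0.33 ± 0.16, FDR = 0.199). The medians of this list were 0.16, 0.02 and 0.11.

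Among 16 tested ligands, partners and relatives of the members, 2 fell in CgA-KO/PS19 against PS19 and none passed in the other comparisons by edgeR, where 2 and 4 were at an unadjusted p under 0.05 and DESeq2 called 1 (Cst6, higher in PS19) and 0, and limma voom 2 and 0. Gas6, the ligand of Axl, was at 84.4 to 91.6 CPM in PS19 and at 49.6 to 76.8 CPM in CgA-KO/PS19, a fall of 0.48 ± 0.13 on the log2 scale (FDR = 0.0253). Tyro3, another TAM receptor, which neurons express, was at 232 to 264 CPM in PS19 and 105 to 223 CPM in CgA-KO/PS19 and fell by 0.71 ± 0.18 (FDR = 0.0244). Neither overlapped between the genotypes, which held for 6.63% of all genes. With near-identical libraries averaged 0 of 16 passed, with 3 at an unadjusted p under 0.05. That fit called 163 of all genes, where the main fit called 2242 (9.72%). In the main fit 5.9% of all genes passed in PS19 against WT and 6.46% in CgA-KO/PS19 against WT. At an unadjusted p under 0.05 were 20.9% and 21.7% of all genes in these 2. Itgb2, the partner chain of Itgax, differed by -0.08 ± 0.20, 0.16 ± 0.19 and 0.08 ± 0.20 in the 3 comparisons, and its FDR was 0.631 to 0.877. Cst6, a cystatin like Cst7, was at a log2 difference of 0.80 ± 0.24 in PS19 against WT (FDR = 0.0546).

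**Figure D4:**
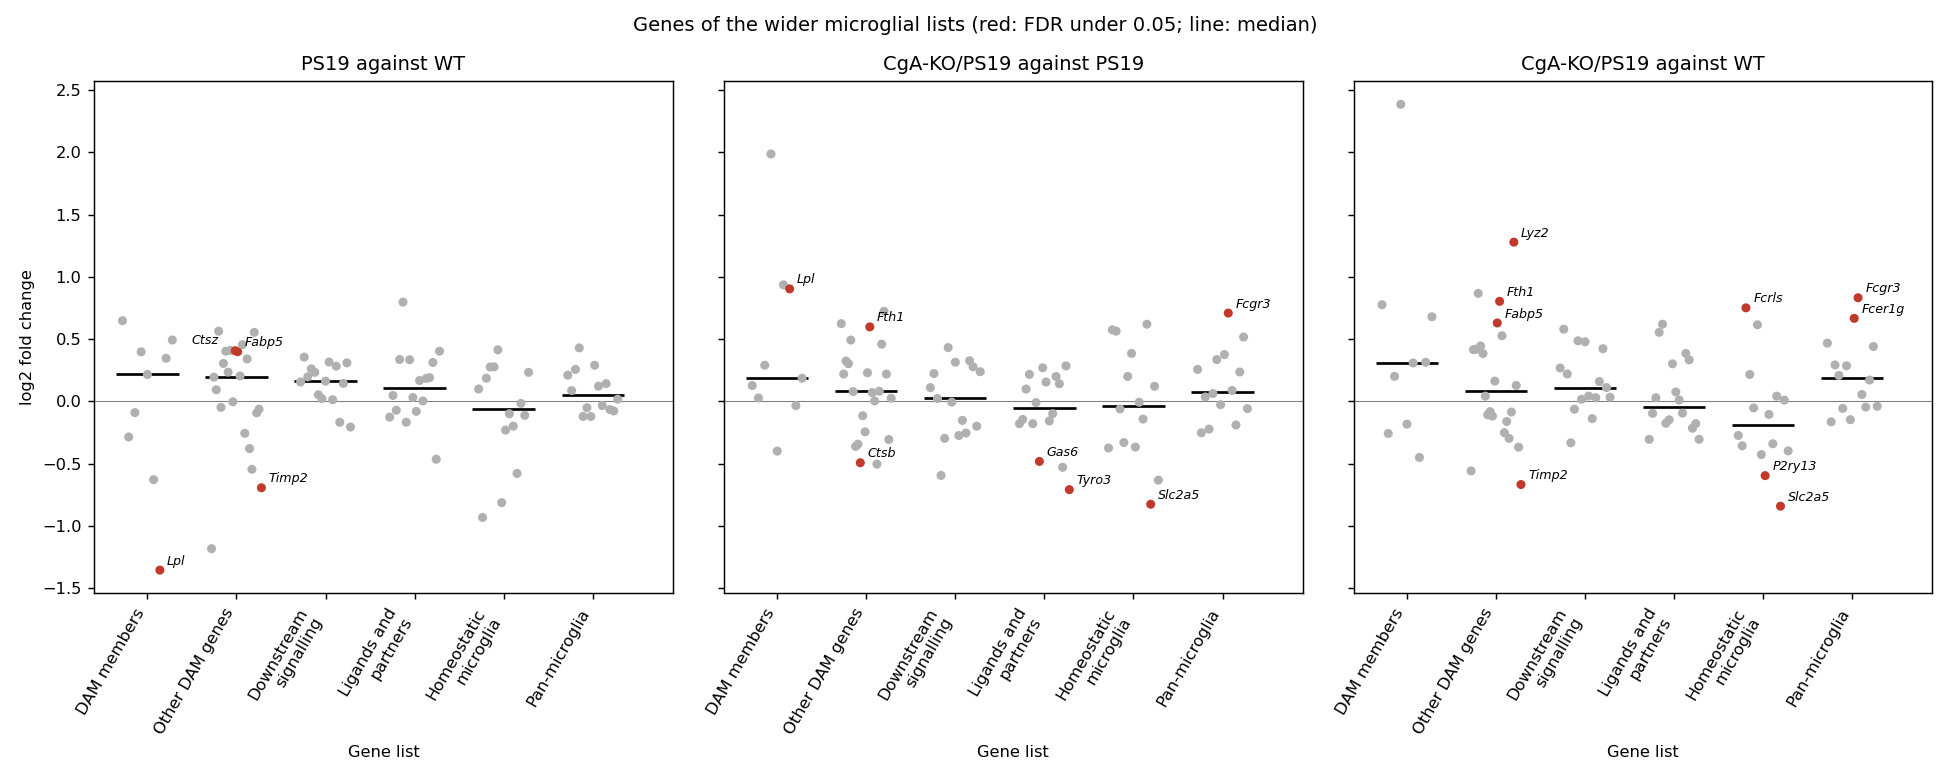
Log2 fold changes of the tested genes of 6 microglial lists in the 3 comparisons (points are genes, red with an FDR under 0.05 and named, and lines are list medians). In the DAM lists Lpl and Timp2 are the genes that fell in PS19 against WT, and Lyz2 at 1.28 is the highest red point of CgA-KO/PS19 against WT.

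Of 14 homeostatic microglia genes tested, 0 passed in PS19 against WT by edgeR or DESeq2, with 1 at an unadjusted p under 0.05, and limma voom called 1 (Siglech, lower). By edgeR 5.9% of all genes passed there, and 20.9% had an unadjusted p under 0.05. Siglech, a sialic acid-binding lectin, was the lowest in p, with a log2 difference of -0.58 ± 0.22 (FDR = 0.136). Slc2a5, the fructose transporter of microglia, fell in CgA-KO/PS19 against PS19 by 0.83 ± 0.19 (FDR = 0.0135 by edgeR). In that comparison DESeq2 called 2 higher and 1 lower (Fcrls, Siglech and Slc2a5). There limma voom called 1 higher and 4 lower (Csf1r, P2ry13, Siglech, Slc2a5 and Tmem119). With near-identical libraries averaged, 0 of the 14 passed in it, with 6 at an unadjusted p under 0.05. That fit called 163 of all genes, where the main fit called 2242 (9.72%). Against WT, Slc2a5 fell by 0.84 and the purinergic receptor P2ry13 fell by 0.60 (FDR = 0.0116, at least 17.3 CPM in each WT library and a mean of 12.0 CPM in CgA-KO/PS19), while the Fc receptor-like Fcrls rose by 0.75 (FDR = 0.0460). Of these calls against WT only P2ry13 remained with the averaged libraries. In the main fit 6.46% of all genes passed against WT. Csf1r, the receptor on which microglia depend for survival, differed by 0.10 ± 0.17, -0.37 ± 0.17 and -0.27 ± 0.17, with edgeR FDR of 0.795, 0.152 and 0.392. Only limma voom called it, in CgA-KO/PS19 against PS19. The list medians were -0.06, -0.03 and -0.19.

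Genes kept in both microglial states gave a measure of the amount of microglial RNA. Their sum was 159 to 217 CPM for WT and 179 to 221 CPM for PS19. For CgA-KO/PS19 it was 231 to 287 CPM in the first 3 replicates and 157 to 181 CPM in the last 3. Of 14 genes, 0 passed in PS19 against WT by edgeR or DESeq2 or limma voom, with 0 at an unadjusted p under 0.05 in edgeR. By edgeR 5.9% of all genes passed there, and 20.9% had an unadjusted p under 0.05. Fcgr3, an Fc receptor for immunoglobulin G, rose in CgA-KO/PS19 against PS19 by 0.71 ± 0.16 (FDR = 0.0149) and against WT by 0.83 ± 0.18 (FDR = 0.00990). The Fc receptor gamma chain Fcer1g, an adaptor related to Tyrobp, rose against WT by 0.67 ± 0.17 (FDR = 0.0285). With near-identical libraries averaged, 0 of the 14 passed in CgA-KO/PS19 against PS19, with 1 at an unadjusted p under 0.05, and Fcgr3 alone passed against WT. That fit called 163 of all genes in CgA-KO/PS19 against PS19, where the main fit called 2242 (9.72%). Against WT 6.46% of all genes passed in the main fit. Aif1, the gene of Iba1, differed by 0.21 ± 0.19, 0.26 ± 0.18 and 0.47 ± 0.19 (FDR = 0.568, 0.361 and 0.159). Spi1, the gene of PU.1, differed by at most 0.06 in size, with standard errors of 0.24 to 0.25.

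Markers of other cells moved with the genotype in part. All 12 striatal markers fell in PS19 against WT, with a median log2 fold change of -4.01, and 9 of 12 rose in CgA-KO/PS19 against PS19. With near-identical libraries averaged these counts were 6 and 0, with 12 and 9 at an unadjusted p under 0.05. That fit called 427 and 163 of all genes in these comparisons, where the main fit called 1361 and 2242. Isl1 was at 0 in every PS19 library. Of 6 choroid plexus markers, 4 fell in PS19 against WT (2 averaged). Of 10 oligodendrocyte markers, 3 (Mobp, Mal and Ermn) rose in CgA-KO/PS19 against PS19, where DESeq2 called 6, limma voom 7 and the averaged fit 0, with 3 at an unadjusted p under 0.05. Of 8 astrocyte markers, 1 (Aldh1l1) rose in PS19 against WT and 2 rose in CgA-KO/PS19 against PS19, among them Slc1a3 by 0.51 (FDR = 0.0465). Of 8 cortical neuron markers, 1 (Cux2) rose in PS19 against WT. Of the blood monocyte and neutrophil markers, Ly6c2 fell in CgA-KO/PS19 against PS19 by 1.18 (FDR = 0.00544), and it is close in sequence to Ly6c1 of endothelium. The astrocyte, Cux2 and Ly6c2 calls in these comparisons were also lost in the averaged fit, where 1 and 2 astrocyte, 3 neuron and 1 monocyte and neutrophil markers had an unadjusted p under 0.05. No border macrophage, oligodendrocyte precursor, endothelial or red blood cell marker passed in any comparison by edgeR. Of all genes 5.9% (PS19 against WT), 9.72% (CgA-KO/PS19 against PS19) and 6.46% (CgA-KO/PS19 against WT) passed. At an unadjusted p under 0.05 were 20.9%, 27.8% and 21.7% of all genes. Of the 8 border macrophage genes 1, 0 and 1 were at an unadjusted p under 0.05, of the 8 precursor genes 2, 2 and 3, of the 8 endothelial genes 2, 0 and 2, and of the 5 red blood cell genes 4, 4 and 0. DESeq2 called Mrc1 in the first comparison and 2 haemoglobin genes in the second, and limma voom called 3 genes (Mrc1, Vcan and Flt1) in the first and 1 (Cspg4) in the last. The most different border macrophage gene was Mrc1 in PS19 against WT (1.09 ± 0.35, FDR = 0.0782).

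With the striatal score as a covariate, Axl, Tyrobp and Trem2 rose in PS19 against WT, by 1.77 (FDR = 0.0016), 1.75 (FDR = 0.0016) and 1.28 (FDR = 0.0065). The log2 differences of Axl and Tyrobp between CgA-KO/PS19 and PS19 became -0.48 and -0.55 and did not pass (FDR = 0.0814 and 0.0572). WT and PS19 do not overlap in the striatal score, so the covariate and the genotype cannot be told apart in this comparison, and which of the 2 fits describes the cortex was not tested.

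**Figure D5:**
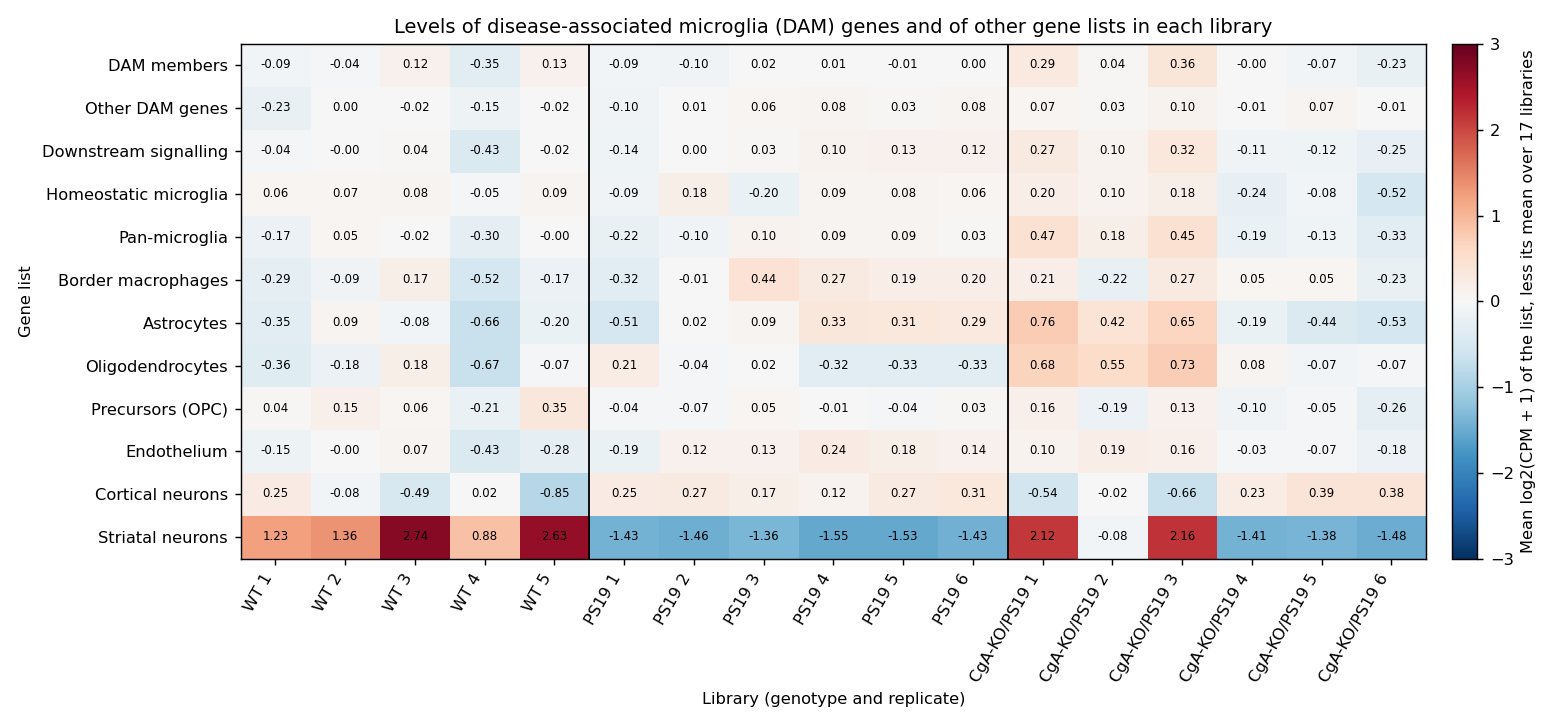
Mean log2(CPM + 1) of 12 gene lists (rows) in the 17 libraries (columns), less the mean of the list over all libraries, on a colour scale from -3 to 3. Striatal neuron markers range from -1.55 to 2.74, and the scores of the 10 members, of pan-microglia genes, of astrocyte markers and of oligodendrocyte markers are all higher in CgA-KO/PS19 replicates 1 and 3 than in replicates 4 to 6.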

How the data were processed

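Prefrontal cortex RNA of 17 mouse libraries was analysed. Per the labels, polyA RNA was sequenced as read pairs of 100 bases, and the authors used Trimmomatic 0.39 for trimming, STAR 2.7.10b for alignment to mm10 and StringTie 1.3.6 for quantification. The deposited values are whole-number counts of each gene from prepDE, not normalized. prepDE assumes reads of 75 bases where a pair holds 200, which gives about 2.67 counts per fragment. Counts of 5 to 7 peaked at 6 in 17 libraries and counts of 1 to 4 peaked at 3 in 13. The annotation release and the use of strand are not given in the sources used here. Overlapping and antisense genes are therefore uncertain. Of 56953 identifiers, 52029 matched GENCODE M21 (GRCm38), the source of positions and lengths.

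The members, lists and tests were chosen with earlier results of these data known. All 10 members were named. Of the other lists, the genes with an FDR under 0.05 or with the lowest p, and a few fixed genes, were named where they bear on the members. Genes most like the members were named by centred correlation.

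Counts were tested with edgeR 4.0.16 in R 4.3.3 (TMM, filterByExpr by genotype, quasi-likelihood test, all 17 libraries in 1 fit, no covariate). FDR is Benjamini-Hochberg over 23062 genes. The depth was 8838334 to 227651681 counts per library, and the common biological coefficient of variation was 0.316. Scores are means of log2(CPM + 1), with a pseudocount of 1. Alternatives were DESeq2 1.42.0, its size factors in edgeR, other filters, only the genotypes compared, limma 3.58.1 voom weighted by library quality, a block of replicate number, Ddx3y or the striatal score as a covariate, counts divided to fragments, near-identical libraries averaged and each library left out. Leaving out mitochondrial genes and the Ddx3y classes were added after seeing the data. Figures were drawn with Python 3.11.15 and matplotlib 3.10.9.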

Additional observations from a re-analysis of the deposited data

Results flagged for a closer look

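In 30 groups of libraries (each member in each genotype), 3 had a library far from the others by Dixon's criterion, which chance gives in about 1 of 20 groups. Trem2 in WT replicate 4 was 2.17 CPM, with the nearest WT library at 4.98 CPM. Ctsd in the same library was 139 CPM, with the nearest at 244 CPM. That library was the shallowest, and without it the log2 difference of Trem2 between PS19 and WT was the smallest of the fits that left out a library, at 0.19. Cd68 in CgA-KO/PS19 replicate 4 was 6.29 CPM, with the nearest library at 7.63 CPM.

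The log2 difference between CgA-KO/PS19 and PS19 was larger in libraries with Ddx3y than in those without it by 1.43 for Tyrobp and by 1.496 for Axl. A test of this difference picked both out, but it was fitted after the split had been seen in the same genes and libraries and is no independent support. With near-identical libraries averaged the differences were 1.27 for Tyrobp and 1.43 for Axl, and neither passed the adjustment.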

How the results depend on the processing

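Each comparison was recomputed under 29 other settings. The fall of Lpl in PS19 against WT kept its direction and its side of the threshold in all 29, and its rise in CgA-KO/PS19 against PS19 in 28, the exception being near-identical libraries averaged. Members called in PS19 against WT numbered 1, and became 3 with only the genotypes compared (Axl, Lpl and Tyrobp), 2 with limma voom (Axl and Lpl) and 4 with the striatal covariate. In CgA-KO/PS19 against PS19 they numbered 1, and became 4 with limma voom, 0 with near-identical libraries averaged and 1 to 2 with a library left out, Ctsd being added without WT replicate 4 and Cd9 without CgA-KO/PS19 replicate 4. In CgA-KO/PS19 against WT they numbered 0, and became 1 with DESeq2 (Axl), 1 with limma voom (Lpl), 5 with the striatal covariate and 0 to 1 with a library left out, Axl being called without CgA-KO/PS19 replicate 5 or 6. The cause of these changes was not tested.

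Genes called in PS19 against WT numbered 1361, and became 2396 with DESeq2, 2275 with only the genotypes compared, 3967 with limma voom, 660 with the replicate block, 427 with near-identical libraries averaged, 3932 with the striatal covariate and 632 (without WT replicate 5) to 1658 with a library left out (889 without PS19 replicate 2). For CgA-KO/PS19 against PS19 they numbered 2242, and became 3958 with DESeq2, 5229 with limma voom, 654 with the replicate block, 163 averaged, 1379 with the striatal covariate and 1019 (without CgA-KO/PS19 replicate 2) to 3822 (without CgA-KO/PS19 replicate 4). It moved by over 1.5 times without WT replicate 4 (3545), without any of PS19 replicates 2 to 6 (1066 to 1407) and without CgA-KO/PS19 replicates 1 (1156) and 3 (1365) as well. For CgA-KO/PS19 against WT they numbered 1489, and became 2564 with DESeq2, 266 with only the genotypes compared, 2458 with limma voom, 614 with the replicate block, 581 averaged, 5016 with the striatal covariate and 627 (without WT replicate 5) to 2099 (847 without CgA-KO/PS19 replicate 2). Same-numbered libraries of different genotypes had a median correlation of -0.007 (16 pairs, 2 above 0.1), so the numbers were not taken as pairs, and the replicate block left the number of members called at 1, 1 and 0.

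Reversals of direction concerned members that did not pass in the main test. In PS19 against WT Clec7a became -1.12 with limma voom and ranged over -0.39 to 1.34 with a library left out, and with the striatal covariate Itgax became 1.95 and Cd9 0.28. In CgA-KO/PS19 against PS19 Cd68 became -0.026 with no filter and -0.064 with the striatal covariate, and ranged over -0.00341 to 0.087 with a library left out. Trem2 became 0.042 with at least 10 counts in every library, 0.0078 with limma voom and 0.0039 with counts per fragment, and ranged over -0.18 to 0.10. With the striatal covariate Tyrobp became -0.55, Itgax -0.36 and Axl -0.48, and with a library left out Tyrobp ranged over -0.046 to 0.32 and Axl over -0.029 to 0.27. In CgA-KO/PS19 against WT Itgax became -0.0108 with limma voom and -0.0122 averaged, and ranged over -0.078 to 0.84. Depth limits Cst7, Itgax and Clec7a, whose counts were at or near 0 in several libraries.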
